A study of Mus musculus with 25 samples.

Results

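The 7 genes Ttn, Nebl, Mybpc3, Myom1, Myom2, Cmya5 and Smyd1 encode titin, proteins of the M-band, the thick filament and the Z-disc, and a methyltransferase that acts in sarcomere assembly. They were taken by name, and each was read from a probe set annotated to that gene alone, with the brightest one kept where a gene had more. All 7 were measured, out of 19938 genes with a probe set of their own, and they carry 8 of the 35557 probe sets of the array, since Nebl has 2. RNA came from cultured neonatal mouse cardiac myocytes of wild type (WT) mice and of transgenic (TG) mice in which the mlc2v promoter drives CHF1/Hey2, a Hairy-related transcriptional repressor, in the myocardium. There were 5 WT and 6 TG cultures in medium without serum, and 7 WT and 7 TG cultures exposed to 20% fetal bovine serum for 24 hours, with 1 Affymetrix Mouse Gene 1.0 ST array for each culture. The myocytes were in serum free medium before that exposure, and the mouse strain is not given in the sources used here. The methods state that myocyte purity was checked by immunostaining for sarcomeric myosin, and they call the cultures independent but name no litters. Each p therefore rests on how far these cultures lay apart, part of which may be technical.

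Titin is a giant elastic protein that spans from the Z-disc to the M-band of the sarcomere and acts as a molecular spring and a scaffold. In the middle of the sarcomere, the myomesins cross-link titin and the myosin thick filaments, and cardiac myosin binding protein C decorates the thick filaments and tunes the contact of myosin with actin. In heart muscle these proteins carry passive tension and keep the filaments aligned, and Ttn and Mybpc3 are known disease genes of human cardiomyopathy.

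The arrays with and without serum stood on 2 scales. The median log2 value of an array lay between 5.21 and 5.36 with serum and between 4.99 and 5.09 without, and the SD over its probe sets was 2.54 to 2.60 and 2.10 to 2.14. TG and WT cultures were therefore compared within each set, and serum was described by the percentile that a probe set held among all probe sets of its own array. In Hey2, the check of the transgene, every TG array stood above every WT array of its set, with a log2 difference of 1.58 without serum (limma adjusted p = 0.853) and 1.81 with serum (limma adjusted p = 0.00972). The 10 cardiac myocyte markers, such as Tnnt2 and Actc1, lay at a median percentile of 98.7 to 99.2 in the 4 groups. The 10 fibroblast markers lay at a median percentile of 82.8 to 88.8, the 10 endothelial markers at 59.4 or below and the 8 skeletal muscle markers at 45.4 to 47.0. The 6 smooth muscle markers lay at 94.0 to 95.7, the 10 epicardial and mesothelial markers at 72.3 to 86.0 and the 10 macrophage markers at 52.2 to 61.2.

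Promoters from RefSeq (GRCm38.p6) are listed for 6 of the 7 genes, each as 250 bases before to 50 bases after an annotated start, and Myom2 is not in the table. The promoters of Ttn, Mybpc3 and Myom1 are shown as examples that hold a MEF2 site or a CArG box. These are the binding sequences of the muscle factors MEF2 and SRF. Nebl, which is not shown, also holds a CArG box. All 7 genes varied together between cultures, and a link of this to the motifs was not tested. Capitals mark MEF2 sites, CArG boxes, the M-CAT element CATTCC, the GATA sites (AGATAA or AGATAG, and likewise TGATAA or TGATAG), and CACGTG or else CACGCG, forms that Hey proteins are known to bind, each searched on both strands. They lie at chr2:76982498-76982797 (minus strand) for Ttn, chr2:91117894-91118193 (plus strand) for Mybpc3 and chr17:71019307-71019606 (plus strand) for Myom1, and are written 5′ to 3′ on the gene's strand.
Ttn: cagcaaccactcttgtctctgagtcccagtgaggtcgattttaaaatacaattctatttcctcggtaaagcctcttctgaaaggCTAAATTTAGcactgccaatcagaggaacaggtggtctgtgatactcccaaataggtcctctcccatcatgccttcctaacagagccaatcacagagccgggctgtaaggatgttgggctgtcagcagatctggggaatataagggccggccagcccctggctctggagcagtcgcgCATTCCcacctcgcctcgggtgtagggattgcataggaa
Mybpc3: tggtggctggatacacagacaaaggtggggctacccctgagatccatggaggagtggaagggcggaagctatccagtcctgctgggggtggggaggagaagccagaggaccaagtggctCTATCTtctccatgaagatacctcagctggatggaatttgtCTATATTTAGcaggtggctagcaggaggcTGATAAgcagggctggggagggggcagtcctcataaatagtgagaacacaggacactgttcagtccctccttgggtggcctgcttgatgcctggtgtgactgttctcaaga
Myom1: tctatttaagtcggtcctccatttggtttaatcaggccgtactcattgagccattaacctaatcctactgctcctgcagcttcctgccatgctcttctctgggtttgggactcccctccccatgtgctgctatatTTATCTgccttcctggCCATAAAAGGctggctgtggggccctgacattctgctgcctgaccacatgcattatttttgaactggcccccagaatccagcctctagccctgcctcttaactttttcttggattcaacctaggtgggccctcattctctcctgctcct

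A MEF2 site began 166 bases before the start of Ttn and 90 bases before that of Mybpc3, and such a site was found in 3.19% of all 32851 promoters. A CArG box began 99 bases before the annotated start used for Myom1 and was found in 1 of the 4 promoters of Nebl, against 1.63% of all promoters. That Myom1 start lies inside the gene, whose coordinates begin at 71003332. GATA sites were found in Nebl, Mybpc3, Myom1 and Cmya5 (29.8% of all promoters) and the M-CAT element in Ttn and Nebl (14.7%). The sequence CACGTG was found in 1 Nebl promoter (7.15%), where it also counts as an E-box CANNTG, and CACGCG in none of the 6 genes (9.27%). These matches describe letters in the windows and are not binding sites, and the promoter of Smyd1 held none of the motifs in capitals.

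No member differed between TG and WT cultures past the adjusted test in either set. Without serum the 7 log2 differences ran from -0.15 to 0.22 with a median of 0.10, and with serum they ran from 0.23 to 0.52 with a median of 0.40, all 7 above 0. Between cultures of 1 group, in contrast, the same transcripts spanned up to 5.96-fold, and they moved together. The 7 genes were low together in WT replicate 2 and TG replicates 4 and 5 without serum, and in WT replicates 3 and 4 and TG replicate 6 with serum. In RNA of whole cultures, fewer myocytes and less of these RNAs per myocyte cannot be told apart.

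Titin (Ttn, chromosome 2 from 76703980 to 76982557 of GRCm38.p6) had log2 values of 9.09, 7.62, 9.02, 9.37 and 8.98 in the WT cultures without serum, from replicate 1 to 5. In the 6 TG cultures without serum its lowest, median and highest values were 7.91, 8.81 and 9.23. WT replicate 2 was far below the other WT cultures, and the TG values lay within the WT range. The log2 difference of TG from WT was -0.15 (SE 0.32, 95% interval -0.85 to 0.55, limma adjusted p = 0.956), the only one of the 7 below 0, although Mybpc3 was at -0.01 when the arrays were quantile normalized again. With serum the lowest, median and highest values were 8.34, 9.52 and 10.37 in the 7 WT cultures and 8.73, 9.74 and 10.28 in the 7 TG cultures. Here too the TG values lay within the WT range, and the log2 difference was 0.31 (SE 0.32, 95% interval -0.38 to 1.01, limma adjusted p = 0.758). In linear terms the interval with serum reached from 0.768-fold to 2.01-fold.

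The myomesins bridge neighbouring thick filaments at the M-band, and of the 2 genes Myom2 encodes the M-protein. Myom1 (chromosome 17 from 71003332 to 71126856) had the widest spread of the members without serum. Its log2 values in the WT cultures without serum were 10.32 to 10.77 in replicates 1, 3, 4 and 5 and 8.82 in replicate 2, and the lowest, median and highest TG values were 8.82, 10.92 and 11.40. The low culture was again WT replicate 2, and the TG cultures below 10 were replicates 4 (9.42) and 5 (8.82). The log2 difference was 0.22 (SE 0.51, 95% interval -0.90 to 1.33, limma adjusted p = 0.961). With serum Myom1 ran from 9.34 over a median of 10.25 to 10.88 in WT and from 9.37 over 11.02 to 11.38 in TG cultures. Of the 7 TG values, 4 lay above the highest WT value and 1, replicate 6, stood near the lowest. The log2 difference of 0.52 was the largest of the members (SE 0.32, 95% interval -0.18 to 1.21, limma adjusted p = 0.581).

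Myom2 (chromosome 8 from 15057653 to 15133420) followed the same cultures. Its mean log2 value was 8.81 ± 0.61 (SD, n = 5) in WT and 8.91 ± 0.79 (SD, n = 6) in TG cultures without serum, and 9.36 ± 0.63 (SD, n = 7) and 9.76 ± 0.66 (SD, n = 7) with serum. The log2 differences were 0.10 (95% interval -0.76 to 0.96, limma adjusted p = 0.977) and 0.41 (95% interval -0.27 to 1.08, limma adjusted p = 0.666). The gap between the 2 myomesins within an array, Myom2 minus Myom1, had means of -1.39 in WT and -1.50 in TG without serum, and -0.86 and -0.96 with serum. These gaps ran from -1.90 to -0.74 over all arrays, and the genotypes overlapped in both sets.

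Cardiac myosin binding protein C (Mybpc3, chromosome 2 from 91118114 to 91136516) had the narrowest intervals of the 7 genes. On the log2 scale it averaged 12.37 ± 0.27 (SD, n = 5) in WT and 12.38 ± 0.42 (SD, n = 6) in TG cultures without serum, a difference of 0.01 (95% interval -0.43 to 0.44, limma adjusted p = 0.998). With serum it was 12.48 ± 0.42 (SD, n = 7) and 12.71 ± 0.33 (SD, n = 7), a difference of 0.23 (95% interval -0.17 to 0.63, limma adjusted p = 0.683). In linear terms, differences beyond 0.744-fold to 1.36-fold without serum and 0.888-fold to 1.55-fold with serum fell outside these intervals.

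Nebulette, which binds actin filaments at the Z-disc of heart muscle, is encoded by Nebl (chromosome 2 from 17342673 to 17734949), and the array measures it with 2 probe sets matched to different transcript records. The brighter one, 10480288, averaged 8.98 ± 0.34 (SD, n = 5) on the log2 scale in WT and 9.08 ± 0.46 (SD, n = 6) in TG cultures without serum, a difference of 0.10 (limma adjusted p = 0.960). With serum it had 9.28 ± 0.47 (SD, n = 7) and 9.60 ± 0.39 (SD, n = 7), a difference of 0.32 (95% interval -0.14 to 0.77, limma adjusted p = 0.611). The second probe set, 10480275, gave differences of 0.05 and 0.34 (limma adjusted p = 0.973 and 0.516), so both pointed the same way in each set. Their percentiles with serum are given with those of the other genes.

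Cmya5 and Smyd1 stood nearest to the threshold with serum. Cmya5 (chromosome 13 from 93040713 to 93144724) encodes myospryn, a muscle protein that binds alpha-actinin and desmin and anchors protein kinase A. In the WT cultures with serum its lowest, median and highest log2 values were 5.61, 5.87 and 6.49, and in the TG cultures 5.49, 6.38 and 7.06. Apart from WT replicate 1 at 6.49, the WT cultures lay at or below 6.01, and 6 of the 7 TG cultures lay above that value. The log2 difference was 0.44 (SE 0.20, 95% interval 0.01 to 0.88, a 1.36-fold level), with a limma adjusted p = 0.461 (unadjusted, 0.0474). Without serum the WT values were 6.19, 5.72, 6.14, 6.21 and 6.41, the TG values ran from 5.44 over 6.46 to 6.71, and the log2 difference was 0.08 (95% interval -0.42 to 0.57, limma adjusted p = 0.968).

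Smyd1 (chromosome 6 from 71213940 to 71262281) encodes a histone methyltransferase with SET and MYND domains. It is expressed in heart and skeletal muscle and takes part in thick filament assembly. With serum its log2 values ran from 9.13 over a median of 9.89 to 10.18 in WT and from 9.41 over 10.33 to 10.50 in TG cultures. The highest WT value was exceeded by 5 of the 7 TG cultures. The log2 difference was 0.40 (SE 0.19, 95% interval -0.02 to 0.82), with a limma adjusted p = 0.487 (unadjusted, 0.0579). Without serum the values were 10.04, 9.12, 10.02, 10.25 and 9.98 in WT, and 8.94, 10.41 and 10.67 were the lowest, median and highest in TG cultures. In this set 4 TG cultures lay above every WT culture and replicate 5 below every one, and the log2 difference was 0.18 (95% interval -0.53 to 0.89, limma adjusted p = 0.949).

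**Figure D1:**
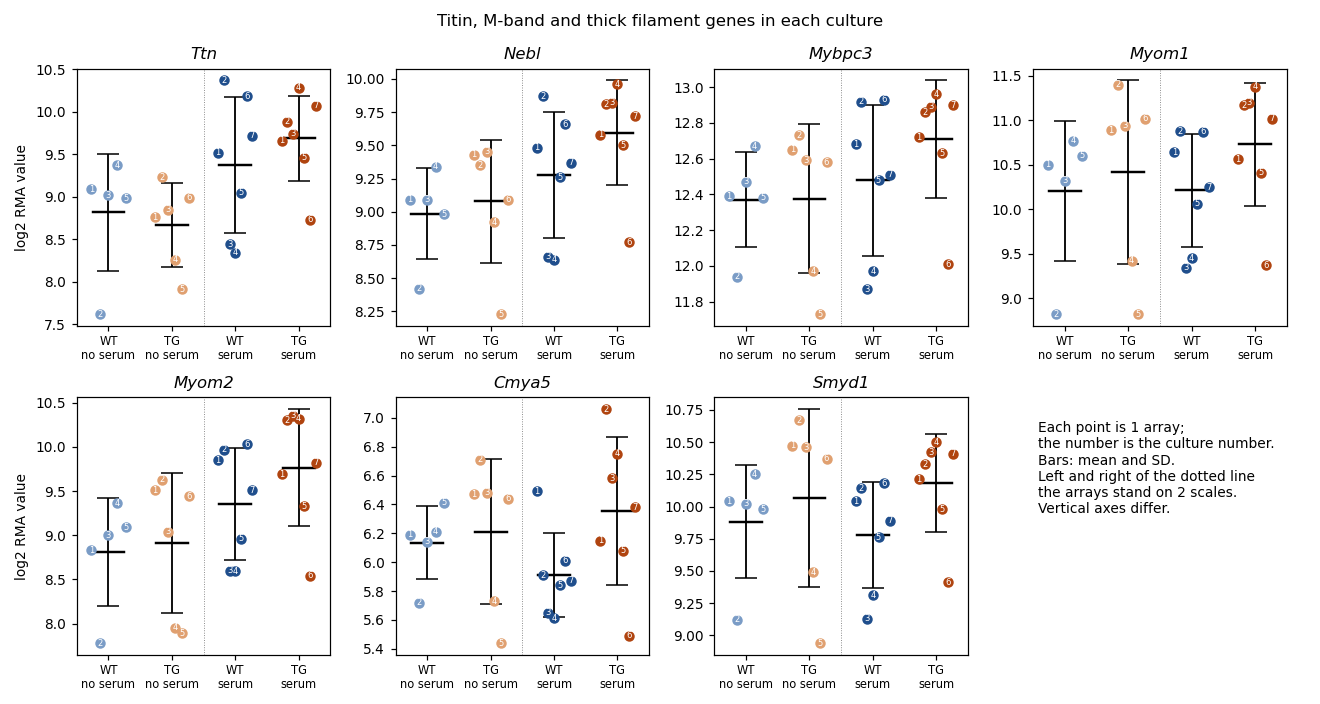
Log2 RMA values (vertical axes, which differ between panels) of the 7 genes in each array, by genotype and serum (horizontal axis). Points are arrays with their culture number, and bars show the mean and SD (n = 5, 6, 7 and 7). WT replicate 2 and TG replicates 4 and 5 without serum, and WT replicates 3 and 4 and TG replicate 6 with serum, lie at the bottom of every panel or near it.

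Over all 35557 probe sets, limma called 0% without serum and 0.00844% with serum at an adjusted p under 0.05, and 0 of the 7 members in both. At an unadjusted p under 0.05 there were 0 of 7 members without serum, against 5.64% of all probe sets (2.31% higher and 3.33% lower in TG), and 1 of 7 with serum, Cmya5, against 10.7% (4.39% higher and 6.31% lower in TG). A share of 1 in 7 is near the background. The split by direction moved with the scaling, since centring each array on its median gave 1749 probe sets higher and 582 lower without serum, against 822 and 1184, and 3385 and 1075 with serum, against 1561 and 2242. Over all probe sets the log2 difference had a median of -0.0083 in the set without serum, with 45.3% above 0, and of -0.019 in the set with serum, with 43.5% above 0. The members had medians of 0.10 and 0.40. The side of 0 on which all probe sets lay depended on the scaling, since with each array centred on its median their median was 0.022 without and 0.031 with serum, with 22031 and 21273 probe sets above 0, and the members then had medians of 0.13 and 0.45. In none of the 7 did the TG and WT arrays separate, whereas 0.172% of probe sets were higher and 0.231% lower in every TG array without serum, and 0.101% and 0.155% with serum. The TG difference with serum minus that without was above 0 in all 7 genes, from 0.22 to 0.46 (the latter in Ttn), but none passed (limma over 25 arrays, adjusted p = 0.9997 for each). Its intervals were wide, -0.53 to 1.46 for Ttn and -0.36 to 0.81 for Mybpc3, and 0.00281% of all probe sets passed. At an unadjusted p under 0.05 it held 0 of 7 members, against 4.26% of probe sets (1.68% with a larger and 2.58% with a smaller value with serum). Of all 35557 probe sets, 16323 were above 0 in this value, and 18560 were with each array centred on its median. The 7 genes varied together between cultures and are not independent. A shift between the 2 array scales cancels in this value, but a stretch of scale does not.

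**Figure D2:**
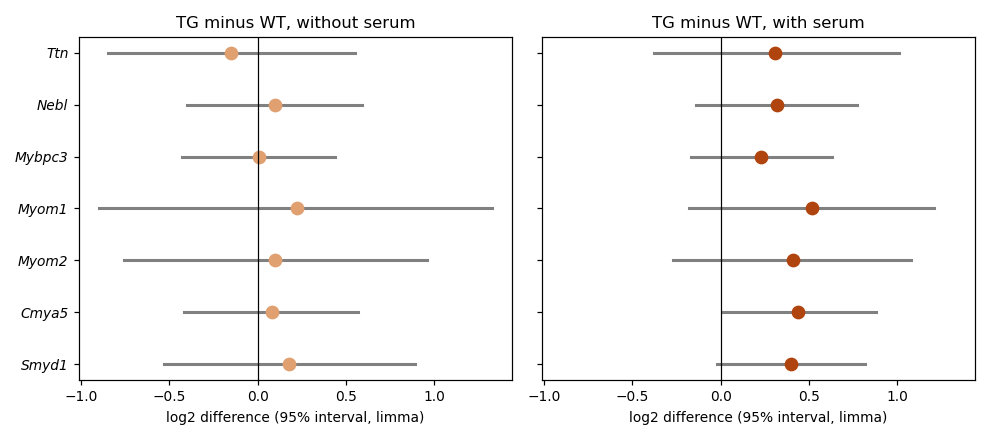
Log2 difference of TG from WT cultures (horizontal axis) for each gene, with the 95% interval from limma as a line, without serum (left, 6 and 5 arrays) and with serum (right, 7 and 7 arrays). The intervals without serum all include 0, and with serum only that of Cmya5, from 0.01 to 0.88, does not.

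Without serum the sign of the differences changed with single cultures. Without WT no serum replicate 2 all 7 differences were below 0, with a median of -0.10 and -0.45 for Ttn. Without TG no serum replicate 5 all were at or above 0.00, with a median of 0.27. Without TG no serum replicate 2 the median was -0.02. With serum every difference stayed above 0 when any 1 array was left out, and the median ran from 0.28 without WT serum replicate 3 or 4 to 0.53 without TG serum replicate 6. Without that TG culture, 5 members (Nebl, Myom1, Myom2, Cmya5 and Smyd1) had an unadjusted p under 0.05, with adjusted p of 0.215 to 0.346 in limma. The background rose as well, since 4911 of 35557 probe sets then had such a p (2423 higher and 2488 lower in TG). With all arrays 3803 did. None of the 7 had one without TG serum replicates 2, 3, 4 or 7 or WT serum replicates 3, 4, 5 or 7.

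The spread between cultures was shared by all 7 genes. After the mean of its own group was taken off each array, the SD over the arrays without serum was 0.36 in Mybpc3, 0.41 in Nebl and Cmya5, 0.59 in Ttn and Smyd1, 0.72 in Myom2 and 0.93 in Myom1, against a median of 0.11 over all probe sets. The SD of Myom1 was larger than that of 99.9% of probe sets and that of Mybpc3 larger than that of 95.3%. With serum the SD ran from 0.38 in Mybpc3 to 0.67 in Ttn, with a median of 0.17 over all probe sets. The 21 pairs of members had Pearson correlations of 0.83 to 0.99 over the 11 arrays without serum (median 0.94) and 0.61 to 0.99 over the 14 arrays with serum (median 0.95). Both lowest values belonged to Ttn with Cmya5, and the highest to Mybpc3 with Smyd1 and to Nebl with Mybpc3. These correlations describe genes read from the same arrays, and no p is given.

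The mean deviation of the 7 genes from their group was -0.83 in WT replicate 2 without serum, and the other WT cultures lay between 0.12 and 0.40. Among the TG cultures without serum it was -0.57 in replicate 4 and -0.97 in replicate 5, against 0.30 to 0.57 in the other 4. In each of these 3 low cultures all 7 genes were below their group mean. With serum it was -0.67 in WT replicate 3 and -0.64 in WT replicate 4, against -0.14 to 0.52 in the other WT cultures, and -0.96 in TG replicate 6, against -0.23 to 0.45 in the other TG cultures. All 7 genes were below the group mean in these 3 as well, and by less in WT replicate 5 (-0.14) and TG replicate 5 (-0.23). Without serum Myom1 deviated most, by -1.38 in WT replicate 2 and -1.59 in TG replicate 5. With serum Myom1 also fell farthest in TG replicate 6 (-1.36), but Ttn did in WT replicates 3 and 4 (-0.94 and -1.03). Cmya5 took the least part with serum, since WT replicate 1 held its highest WT value (6.49) while replicates 2 and 6 were highest for the other 6 genes.

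Markers of cell types moved with this pattern. The 10 cardiac myocyte markers deviated by -0.60 in WT replicate 2, -0.30 in TG replicate 4 and -0.73 in TG replicate 5 without serum, and by -0.47, -0.40 and -0.59 in WT replicates 3 and 4 and TG replicate 6 with serum, which were the lowest cultures of their groups. The 10 endothelial markers deviated by 0.16, 0.08 and 0.47 in the same 3 cultures without serum and by 0.45, 0.42 and 0.66 in those with serum, so they were above the group mean in all 6. Where the members were not low, endothelial markers were also above it in WT replicate 5 (0.22) and TG replicate 6 (0.07) without serum. With serum the same held in WT replicate 7 (0.02). Endothelial markers were also above the group mean with serum in WT replicate 5 (0.07) and TG replicates 1 (0.18) and 5 (0.26). There the mean deviation of the members was -0.14, -0.06 and -0.23. The 10 fibroblast markers were above it in 5 of the 6 (0.04, 0.29, 0.41, 0.39 and 0.37) and below it in TG replicate 4 without serum (-0.13). Fibroblast markers were also high, at 0.51 and 0.55, in WT replicates 1 and 5 without serum, where the members were not low. Epicardial and mesothelial markers in the 6 low cultures were at -0.02 to 0.26 and macrophage markers at -0.55 to 0.11. The smooth muscle list, which shares Des with striated muscle, was below its group mean in all 6, by -0.34 to -0.07. The part of these cells in the values of the members was not tested.

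**Figure D3:**
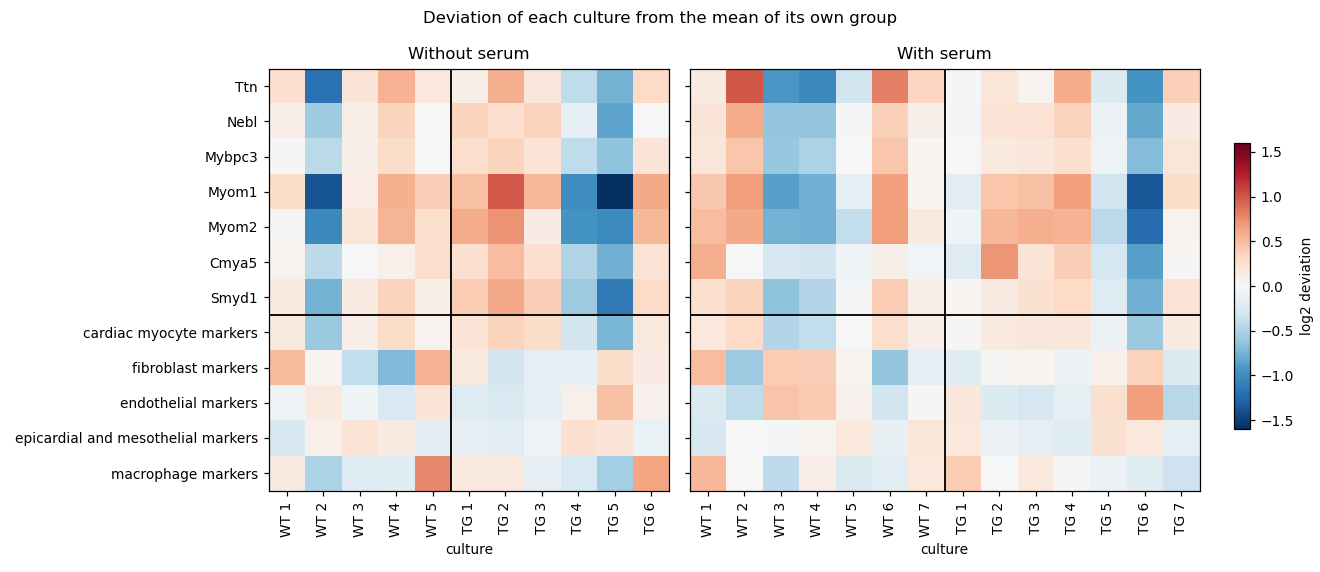
Deviation of each array from the mean of its group (colour, log2 units) for the 7 genes, above the line, and for the mean of 5 lists of cell type markers, below it. Columns are cultures, split by genotype, without serum (left) and with serum (right). The columns TG 5 without serum and TG 6 with serum are blue in all 7 genes and in cardiac myocyte markers and red in endothelial markers (0.47 and 0.66).

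Among the TG cultures, Hey2 ran beside the members. Its log2 value was 7.08 in both TG replicates 4 and 5 without serum and 7.82 to 8.55 in the other 4 TG cultures, of which replicate 2 was highest in Hey2 and in the mean of the members. With serum, TG replicate 6 was lowest in both (Hey2 at 7.94) and replicate 4 highest in both (Hey2 at 9.36). In the WT cultures Hey2 spanned only 6.12 to 6.37 without serum, and the low WT replicate 2 was at 6.32. With serum WT replicates 3 and 4 were at 6.96 and 6.77, within the range of the WT cultures from 6.59 to 7.36. The mlc2v promoter of the transgene is that of a ventricular myosin light chain gene, and the part of Hey2 in this pattern was not tested.

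Among the other genes, those whose deviations ran most like the mean of the members were Actn2, Clybl, Myzap, Asb2 and Cap2, each with a mean Pearson correlation of 0.99 over the 11 arrays without and the 14 arrays with serum. Actn2 encodes the alpha-actinin of the Z-disc, Myzap a protein of the intercalated disc, Asb2 a subunit of a ubiquitin ligase in muscle and Cap2 an actin regulator. In the set without serum their log2 differences of TG from WT lay between 0.11 and 0.27, and in the set with serum between 0.32 and 0.55, near those of the members. Tek, which encodes an endothelial receptor, was among the most opposite genes, with a correlation of -0.95. It was not the most opposite, since Elmod1 and Nup50, which are in none of the marker lists, had -0.96.

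Lists of other sarcomere genes differed in their medians with serum, from 0.06 for chaperones and partners of SMYD1 to 0.40 for Z-disc anchors. Of 10 thick filament genes, 0 passed the adjusted test in either set. Their median log2 difference was 0.06 without serum and 0.23 with serum. At an unadjusted p under 0.05, 3 were lower without serum (3.33% of all probe sets) and 1 was higher with serum (4.39%). The 3 lower ones were Mybphl (-0.28, limma adjusted p = 0.853), the skeletal muscle gene Mybpc1 (-0.13) and Mybph (-0.12), and the higher one was the ventricular light chain gene Myl3 (0.57, limma adjusted p = 0.414). The atrial light chain gene Myl7 had -0.48 with serum (limma adjusted p = 0.499), while the atrial Myl4 had 0.16 and the ventricular Myl2 0.29, so 3 of the 4 light chains were above 0. Mybpc1, Mybphl and Mybph had mean log2 values of only 4.40 to 6.50 in the cultures without serum.

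The 10 measured M-band partners had medians of 0.09 without and 0.12 with serum, and with serum Fhl2, a LIM protein that binds titin, had 0.25 (limma adjusted p = 0.358) and the creatine kinase gene Ckm 0.75 (0.462). Without serum the smallest p in this list belonged to Myom3 (-0.08) and Nbr1 (0.06). Among 6 partners of the spring region of titin, Ankrd23, an ankyrin repeat protein, had 0.38 without serum and 0.76 with serum (limma adjusted p = 0.907 and 0.402), and Ankrd2 had -0.11 and -0.15. Of 15 genes that anchor titin and the thin filaments at the Z-disc and the filament ends, 14 were above 0 without serum (median 0.22) and 12 with serum (median 0.40). In that list 4 genes were higher in TG at an unadjusted p under 0.05 with serum, against 4.39% of all probe sets. They were Tcap, which caps the end of titin (0.60, limma adjusted p = 0.338), Nrap (0.50), Lmod2 (0.40) and Xirp2 (0.87). Without serum Neb had -0.05 and Des 0.18. Chaperones and partners of SMYD1 had medians of 0.10 and 0.06 over 9 genes, with the smallest p for Hspb1 (0.15) and Bag3 (0.11) without serum and for Smyd2 (0.30) and Hspb7 (0.25) with serum. The 8 thin filament genes had medians of 0.10 and 0.17, led by Tnni3 (0.27 and 0.42, limma adjusted p = 0.897 and 0.471).

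The lists of other cell types stood beside these values as follows. Without serum 3 of the 10 endothelial markers were above 0 (median -0.02), as were 8 of the 10 cardiac myocyte markers (median 0.06). With serum all 10 endothelial markers were below 0 (median -0.27), 1 of them, Vwf (-0.17), at an unadjusted p under 0.05, and 9 of the 10 cardiac myocyte markers were above 0 (median 0.23). Fibroblast markers had medians of -0.08 without and -0.02 with serum, epicardial and mesothelial markers -0.12 and -0.15, macrophage markers -0.14 and 0.09, smooth muscle markers 0.03 and 0.04 and skeletal muscle markers -0.05 and -0.07. The mean log2 level of the endothelial list ran from 5.91 to 6.76 in WT and from 5.59 to 6.70 in TG cultures with serum, and that of the cardiac myocyte list from 11.22 to 12.01 and from 11.31 to 12.08. In the other lists an unadjusted p under 0.05 went to Kdr (-0.19, endothelial) and Tnnt3 (-0.09, skeletal muscle) without serum, and to Upk1b (-0.81) and Wt1 (-0.16) of the epicardial and mesothelial list and Myod1 (-0.22), Myh2 (-0.22) and Tnnt3 (0.17) of the skeletal muscle list with serum. Over all probe sets such a p was found in 5.64% without and 10.7% with serum. No gene of these lists passed the adjusted test, and their part in the TG differences of the members was not tested.

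The place of the members within their arrays was compared between cultures with and without serum. Percentiles as high as those of Mybpc3 and Myom1 have little room to rise. In WT cultures the mean percentile of Ttn among all probe sets was 89.9 without and 90.1 with serum, that of Myom2 90.1 and 90.3, that of Myom1 96.0 and 94.5 and that of Mybpc3 99.6 and 99.3. In TG cultures Ttn was at 89.1 and 92.2, Myom2 at 90.1 and 92.4, Myom1 at 96.2 and 96.1 and Mybpc3 at 99.6 and 99.5. In 0 of 7 members did the arrays with and without serum separate in either genotype, whereas in WT cultures 17.1% of all probe sets were higher and 18.8% lower in every array with serum, and in TG cultures 16.7% and 18.5%. The median shift of the members was -1.41 points in WT and -0.048 points in TG cultures, against 0.077 and 0.080 for all probe sets. Leaving out 1 array turned some shifts, which then ran from -2.15 to 1.29 for Ttn and from -1.70 to 1.07 for Myom2 in WT cultures, and from -0.932 to 1.09 for Nebl, from -1.30 to 0.793 for Myom1 and from -0.150 to 0.0633 for Mybpc3 in TG cultures. The spread over all probe sets was wide, with the 5th percentile of the shift at -12.6 and the 95th at 12.3 points in WT cultures. No test was made, since serum and the scale of the array set cannot be told apart.

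Within WT cultures Cmya5 and Smyd1 shifted most, and within TG cultures Ttn did, by 3.17 points (1.96 to 4.16 with 1 array left out). Cmya5 held percentiles of 64.4, 58.7, 63.8, 64.6 and 66.8 without serum and 53.9 to 63.7 (median 56.9) with serum, a mean shift of -6.24 points in WT and -2.28 in TG cultures (-4.06 to -0.765 with 1 array left out). The overlap rested on WT replicate 2 without serum (58.7) and WT replicate 1 with serum (63.7), and without either of these arrays the ranges separated. Smyd1 held 96.0, 92.4, 96.0, 96.6 and 95.8 without serum and 89.3 to 94.8 (median 93.5) with serum, a shift of -2.52 in WT and -1.09 in TG cultures. Here WT replicate 2 alone crossed. Without it 2 members, Cmya5 and Smyd1, separated in WT cultures. The share of all probe sets that separated without this array was not computed. With all WT arrays 17.1% were higher and 18.8% lower with serum, and leaving out an array can only raise such shares.

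The 2 probe sets of Nebl parted with serum. The brighter one, 10480288, was at a mean percentile of 91.4 without serum in WT cultures with a shift of -1.41 points, and at 91.6 in TG cultures with a shift of 0.217 points. The other, 10480275, was at 70.6 and 59.9 in WT cultures, a shift of -10.7 points. Its WT arrays did not overlap (65.6 to 74.5 without and 52.7 to 65.2 with serum). Of all probe sets, 18.8% were likewise lower in every WT array with serum. In TG cultures 10480275 was at 71.2 and 63.7, a shift of -7.50 points with overlapping arrays (64.0 to 74.9 and 58.8 to 66.5). Within each set the 2 probe sets followed the same cultures, with Pearson correlations of 0.98 over the 11 arrays without and 0.96 over the 14 arrays with serum.

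**Figure D4:**
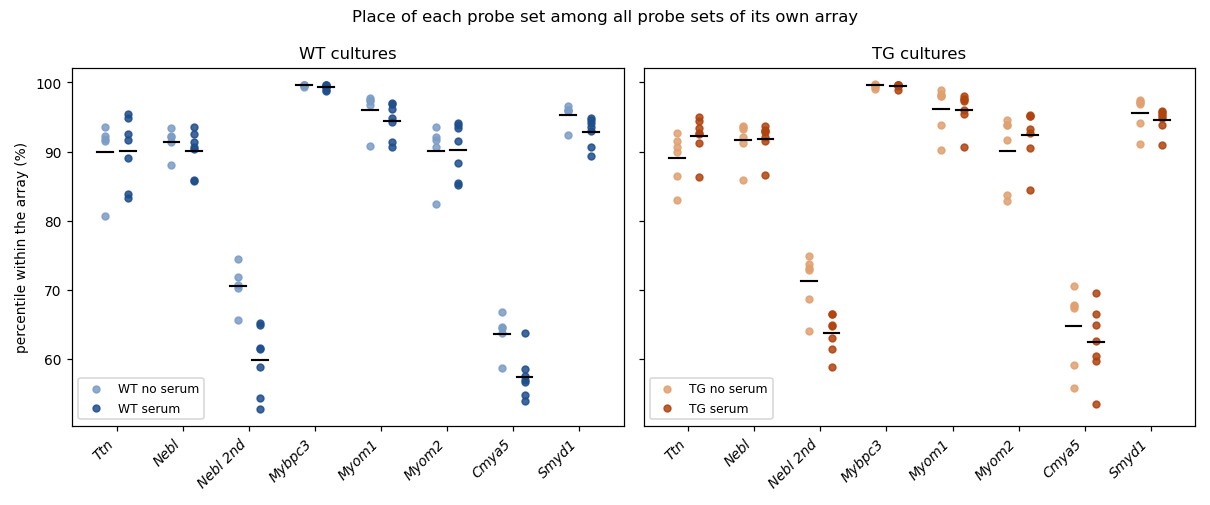
Percentile of each probe set among all probe sets of its own array (vertical axis), for WT (left) and TG (right) cultures without serum (pale) and with serum (dark). Points are arrays and bars are group means, and Nebl 2nd is probe set 10480275. Its WT arrays are the ones that separate, at 65.6 to 74.5 without and 52.7 to 65.2 with serum. Of all probe sets, 18.8% were lower in every WT array with serum.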

How the data were processed

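RNA of cultured neonatal mouse cardiac myocytes was hybridized to Affymetrix Mouse Gene 1.0 ST arrays, 25 in all. Per the labels, the authors normalized the arrays by RMA (Expression Console 1.1), and they deposited log2 values of 35557 probe sets. Whether both serum sets were normalized together is not given in the sources used here. The annotation gives 1 gene symbol for 21789 of them, more than 1 for 1621 and none for 12147. The number of arrays limits the precision.

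TG and WT cultures were compared within each serum set with limma 3.58.1 (lmFit, 1 mean per group, eBayes) in R 4.3.3 over all probe sets, with p adjusted by the Benjamini-Hochberg method and calls at an adjusted p under 0.05. The difference between the sets came from 1 fit over 25 arrays. The code was tested on simulated data. Every member was named, and from each list of related genes or markers those past the test or the 2 with the smallest p in each set, plus the 5 genes most alike the members and Hey2. Elmod1, Nup50, Tek, Myl2, Myl4 and further list genes with an unadjusted p under 0.05 were added once their values were known. The members and lists were chosen with earlier results of these data known. Percentiles are ranks within an array. Gene coordinates and promoters come from RefSeq (GRCm38.p6), whose build need not be that of the array's annotation. Cultures share only a number in the labels, which was tried as a replicate block. Also tried were weights for arrays, a prior with trend and robust fit, quantile normalization again, centering on the median, leaving out dim probe sets (mean log2 under 5), keeping only probe sets of 1 gene, averaging the probe sets of each gene, 1 fit over 25 arrays and leaving out each array in turn.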

Additional observations from a re-analysis of the deposited data

Results flagged for a closer look

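Over 32 sets of values (8 probe sets in 4 groups), a test for 1 stray array marked 5, where chance marks about 1 in 20. In WT cultures without serum, replicate 2 was low in Ttn (7.62, next 8.98), Myom1 (8.82, next 10.32) and Smyd1 (9.12, next 9.98). In TG cultures with serum, replicate 6 was low in Nebl (8.77 at probe set 10480288, next 9.50) and Mybpc3 (12.01, next 12.63). The 5 marks lie in 2 cultures, and the 7 genes, read from the same arrays, are not independent.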

How the results depend on the processing

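None of the 7 genes passed an adjusted p under 0.05 in limma in any alternative, and the lowest adjusted p was 0.725 without serum, 0.215 with serum and 0.979 for the difference between the sets. With serum the direction held in all 98 gene values with 1 array left out and all 63 under the remaining alternatives. Without serum, 3 of 63 turned: Mybpc3 was at -0.01 with quantile normalization again and -0.04 with the replicate block, and Myom2 at -0.01 with that block. With 1 array left out 15 of 77 turned. The range was -0.45 to 0.00 for Ttn, -0.04 to 0.27 for Nebl, -0.10 to 0.14 for Mybpc3, -0.13 to 0.53 for Myom1, -0.16 to 0.30 for Myom2, -0.03 to 0.23 for Cmya5 and -0.01 to 0.41 for Smyd1, and the median of the members ran from -0.10 to 0.27. For the difference between the sets, Myom1 (-0.02 to 0.65) and Smyd1 (-0.01 to 0.41) turned without TG no serum replicate 5. Same-number TG and WT cultures correlated at -0.449 to 0.15 without and -0.36 to 0.0621 with serum, going by the labels. For the set without serum, culture numbers in a figure legend of the paper differ from those labels. Some of these pairs may therefore be mismatched, also in the replicate block, and the check cannot decide whether cultures were paired.

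The number of members with an unadjusted p under 0.05 with serum, 1, was 4 with array weights, 2 with each array centred on its median, 2 with only probe sets of 1 gene or averaged probe sets, 0 with the replicate block and 0 to 5 with 1 array left out. Of all 35557 probe sets, 3803 had such a p in the main fit, 5251 with array weights and 4460 with centering. With the replicate block 2721 did, and 3028 to 4911 with 1 array left out. With only probe sets of 1 gene it was 2698 of 21789, and with averaged probe sets 2479 of 19938. Over all probe sets, 3 passed the adjusted test with serum, and 5 did with centering or without dim probe sets, 1 with averaged probe sets or the replicate block, 141 in 1 fit over 25 arrays and 1 to 3 with 1 array left out. For the difference between the sets 1 passed, and 6 did with centering, 0 with quantile normalization again, averaged probe sets or the replicate block, and 0 to 4 with 1 array left out. The cause of these changes was not tested. The number of members whose percentiles separated with serum was 0 and became 2 without WT no serum replicate 2, 1 (Cmya5) without WT serum replicate 1, and 0 to 2 over all such runs. The shares of all probe sets that separated in these runs were not computed.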
